A study of Cardamine hirsuta with 24 samples.

Results

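The comparison sets seedling pools treated with dexamethasone (Dex) for 8 h against pools kept in medium with DMSO (Mock) for the same 8 h. It takes in every library that the labels place at 8 h, 3 of Dex and 3 of Mock, which makes 6 of the 24 RNA-seq libraries of the series. All libraries came from *Cardamine hirsuta* of the Oxford genotype carrying the transgenes RCOp::LhG4:GR and Op::ChCUC1:Venus, so that the controls held the construct too. Dex pools were in liquid medium with 10 µM Dex, and Mock pools in medium with 0.1% DMSO. The labels give no DMSO content for the Dex pools. Each library came from 20 seedlings aged 12 days, from which cotyledons, roots and mature leaves had been removed. The other libraries, 3 of Dex and 3 of Mock at each of 2, 4 and 6 h, are used only to set the values at 8 h beside those at the other times.

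CUC genes encode NAC transcription factors that mark the boundaries between organs and, in leaves, the flanks of outgrowing teeth and leaflets. In *C. hirsuta*, which has compound leaves, they act with auxin, whose direction of flow is set by PIN transporters and by kinases that phosphorylate them, among them WAG1 and WAG2. In the construct, the *RCO* promoter, active in foci along the margin of young leaves, drives a synthetic activator fused to the glucocorticoid receptor domain. Dex lets that activator enter the nucleus, where it switches on the ChCUC1:Venus fusion. No Dex-treated seedlings without the construct were analysed here, so a response to Dex itself and a response to ChCUC1 cannot be told apart. The RNA was that of shoot apices with young leaves as a whole, in which fewer cells of a type and less RNA per cell cannot be told apart either.

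Reads assigned to genes numbered 18.3 to 19.91 M in the Dex libraries and 19.21 to 21.29 M in the Mock libraries, over 29458 gene rows. In Dex libraries 5.48% to 7.07% of these reads went to the top 10 genes, and in Mock libraries 5.78% to 6.04%. Levels are given as normalised CPM, reads relative to a common library size after TMM scaling. CPM is not corrected for gene length, so levels are compared between libraries and never between genes. A gene is said to have risen or fallen where edgeR's quasi-likelihood test on the 6 libraries gave a Benjamini-Hochberg adjusted p under 0.05 with a fold over 1.5, over 20353 genes tested. Values after ± are standard deviations over 3 libraries for CPM and standard errors for log2 fold changes.

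The 3 Dex libraries were not alike, and this bears on every count that follows. Over all genes tested, the log2 difference from the Mock mean had a standard deviation of 0.742 in Dex replicate 1, 0.518 in Dex replicate 3 and 0.323 in Dex replicate 2. Each Mock library set against the other Mock libraries gave 0.199 to 0.236. Dex replicate 2 thus stood nearest to Mock and Dex replicate 1 farthest from it. Differences from the Mock mean correlated across genes with r = 0.918 between Dex replicates 1 and 3, but with r = 0.547 between 2 and 3 and r = 0.472 between 1 and 2, as a description over genes that share the Mock libraries. A chi-square over degrees of freedom of 19.0 to 87.4 between Dex replicates, against 2.63 to 5.58 between Mock replicates, gave the same order. No pair of libraries agreed within counting error.

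**Figure D1:**
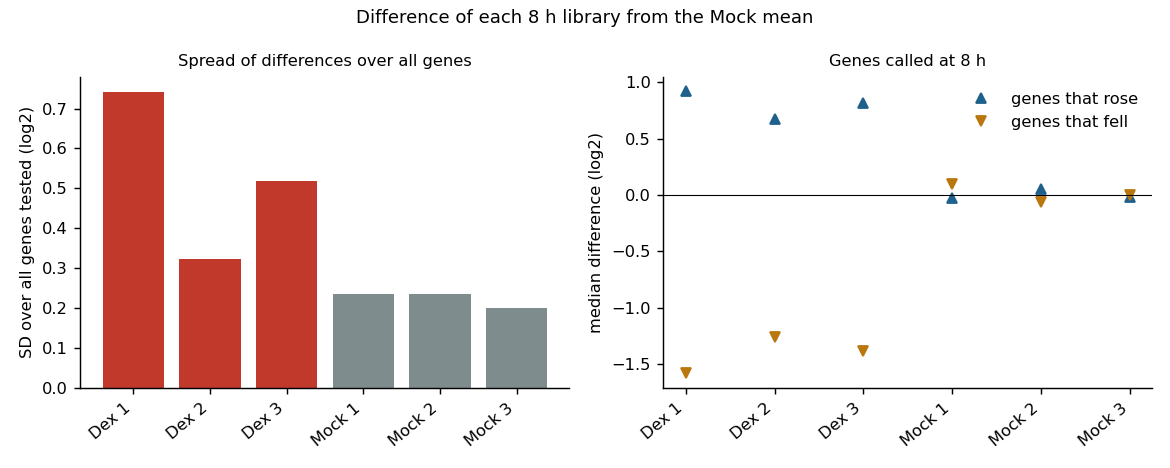
Left, the standard deviation over all genes tested of the log2 difference between each 8 h library and the Mock mean (for a Mock library, the mean of the other Mock libraries). Right, the median of that difference over the genes that rose (triangles up) and fell (triangles down). Dex replicate 2 lies nearest to Mock in both, at 0.323 on the left, while Dex replicate 1 reaches 0.742.

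The gene under induction was looked at first. *ChCUC1* (CARHR090150), whose reads come from the transgene and the endogenous copy alike and cannot be separated, had 8.22, 7.92 and 7.52 CPM in Dex replicates 1, 2 and 3, against 1.62, 2.67 and 1.89 CPM in Mock replicates 1, 2 and 3. All Dex libraries lay above all Mock libraries, and the Dex libraries that differed so much over the whole transcriptome held nearly the same level of *ChCUC1*. *ChCUC1* rose 3.84-fold (log2 fold change 1.94 ± 0.19, adjusted p = 0.0443 by edgeR). With 3 libraries against 3, an exact two-sided permutation test of this gene alone gave p = 0.1, the smallest p that such a design allows. When all 24 libraries shared 1 estimate of the spread, the adjusted p for *ChCUC1* was 0.192 by edgeR at an almost equal log2 fold change of 1.95.

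The PIN kinase genes behaved less evenly. *WAG2* (CARHR089410) had 7.18, 1.12 and 4.70 CPM in Dex replicates 1, 2 and 3, against 0.490, 0.640 and 1.05 CPM in Mock. Every Dex library was above every Mock library, but Dex replicate 2 only just so. The log2 fold change of 2.58 ± 0.68 did not pass (adjusted p = 0.0663 by edgeR). *WAG1* (CARHR044000) had 4.24, 1.798 and 2.78 CPM in Dex, against 0.930, 1.49 and 1.31 CPM in Mock, again with no overlap and again lowest among Dex in replicate 2. Its log2 fold change was 1.25 ± 0.36 and its adjusted p 0.0726 by edgeR. Without Dex replicate 2 both genes passed, *WAG2* at a log2 fold change of 3.03 (adjusted p = 1.84e-04 by edgeR) and *WAG1* at 1.49 (adjusted p = 0.00176 by edgeR). Other omissions went against them, as neither passed without Dex replicate 3 or without any one Mock library. Over 16 alternatives the log2 fold change lay between 1.799 and 3.03 for *WAG2* and between 0.714 and 1.64 for *WAG1*. The adjusted p by edgeR or DESeq2 reached 0.541 for both.

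**Figure D2:**
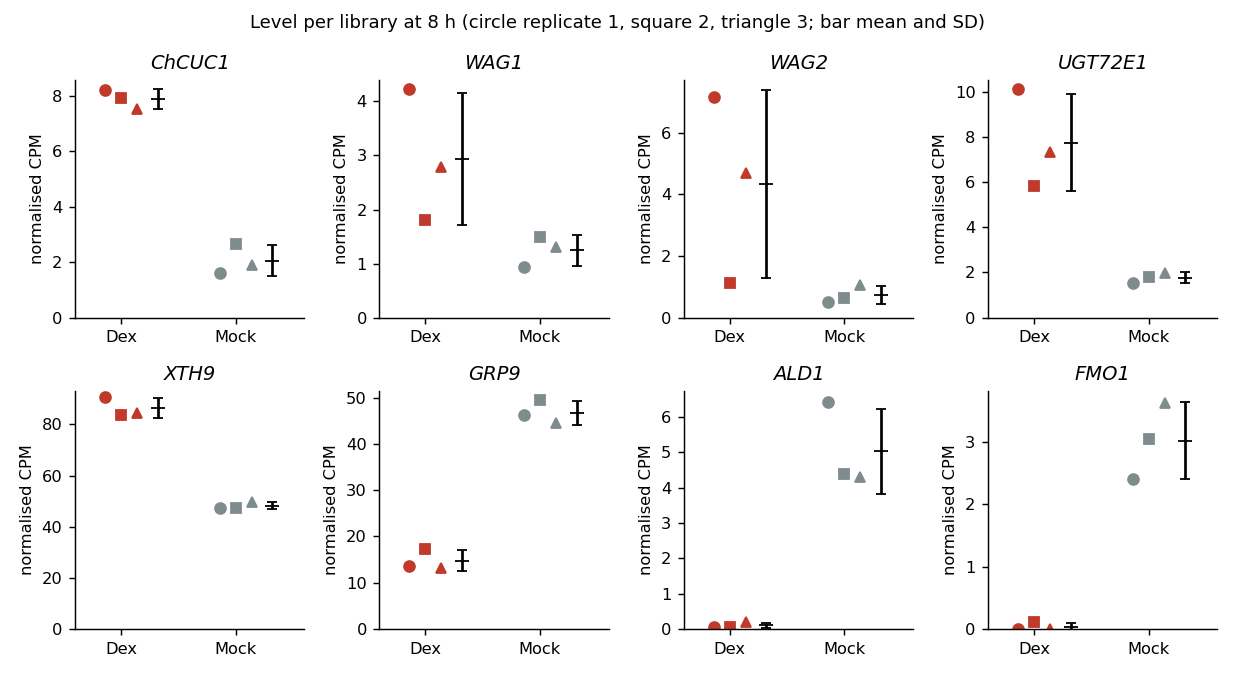
Normalised CPM of 8 genes in each 8 h library, Dex in red and Mock in grey, with the mean and SD of 3 libraries as black bars. ChCUC1 lies between 7.52 and 8.22 CPM in Dex, WAG1 and WAG2 have their lowest Dex value in replicate 2, and ALD1 and FMO1 are close to 0 in every Dex library.

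Of the genes tested, 56 rose (0.275%) and 32 fell (0.157%), which is 88 in all (0.432%). In each of these 88 genes the Dex and Mock libraries did not overlap. That alone is common here, as all 3 Dex libraries lay above all 3 Mock libraries in 4224 genes (20.8%) and below them in 4219 (20.7%), and 7208 genes had an unadjusted p under 0.05. The count of 88 sits on a steep slope. With 1 spread estimated from all 24 libraries, edgeR called no gene at 8 h, although 3433 had an unadjusted p under 0.05. DESeq2 on the 6 libraries called 2135, among them 31 of the 34 genes named by rule that edgeR on these libraries did not call. A gene said not to have passed is thus only one that this edgeR fit did not call. At an adjusted p under 0.1 the same edgeR fit called 2303 genes. Without Dex replicate 2 it called 5139, of which 2499 were higher in Dex (12.3%) and 2640 lower (13%). Without any one of Dex replicate 3 and Mock replicates 1, 2 and 3 it called no gene, while 4137 to 4861 genes had an unadjusted p under 0.05, and without Dex replicate 1 it called 216. Counts of list members without Dex replicate 2, given below, thus come from the omission that raised the calls most. Without Dex replicate 3 or any one Mock library, no member of any list was called. Scaling by library totals alone called 42 genes and turned the balance, with 20 higher and 22 lower in Dex, while moving the median log2 fold change of all genes to 0.10, against 0.02 with TMM.

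**Figure D3:**
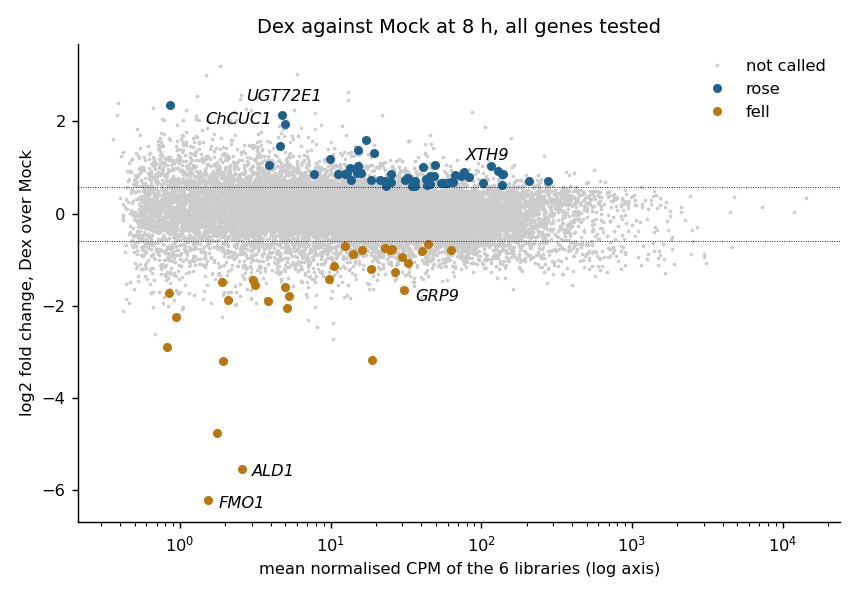
Log2 fold change of Dex over Mock at 8 h against the mean normalised CPM of the 6 libraries, on a log axis, for all 20353 genes tested. The 56 genes that rose are in blue and the 32 that fell in ochre, dotted lines mark a fold of 1.5, and FMO1 and ALD1 are the lowest points, at -6.22 and -5.54.

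Among the genes that fell the median log2 fold change was -1.46, 22 of 32 passed a 2-fold change and 8 a 4-fold change. Among those that rose the median was 0.82, 13 of 56 passed a 2-fold change and 2 a 4-fold change. For these medians and counts, the fold was itself part of the call. Dex replicate 2 had the smallest difference from the Mock mean in 41 of the 56 genes that rose and in 24 of the 32 that fell, and Dex replicate 1 the largest in 42 and in 22. An *Arabidopsis thaliana* counterpart was given in the study's tables for 31 of the genes that rose and 20 of those that fell, and the names and roles below are those of the counterparts.

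The largest falls were in genes of systemic defence. *ALD1* (CARHR104700), the aminotransferase that begins the synthesis of pipecolic acid, a signal of systemic acquired resistance in *A. thaliana*, had 1, 1 and 4 reads in the Dex libraries, against 131, 82 and 82 reads in the Mock libraries. *FMO1* (CARHR019850), the monooxygenase that turns pipecolic acid into its active N-hydroxy form, had 0, 2 and 0 reads in Dex, against 49, 57 and 69 reads in Mock. Both genes were thus close to absent in all 3 Dex libraries, Dex replicate 2 included. Summed over libraries and scaled for depth, *ALD1* was at 0.0202 of its Mock level (95% exact interval 0.00734 to 0.0444, which covers counting error only) and *FMO1* at 0.0113 (0.00136 to 0.0415). Adjusted p-values by edgeR were 0.0172 and 0.0414.

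Both genes belong to a list of WRKY and defence genes, of which 38 were tested. In that list 3 fell and none rose, against 0.157% and 0.275% of all genes, and the third was *WRKY29* (CARHR230930), a WRKY factor of immune signalling in *A. thaliana*. *WRKY29* had 26.4, 33.0 and 28.9 CPM in Dex, against 55.1, 49.6 and 49.2 CPM in Mock (log2 fold change -0.80 ± 0.11, adjusted p = 0.0457 by edgeR). All 3 Dex libraries lay below all 3 Mock libraries in 25 of the 38 members (20.7% over all genes), and the median log2 fold change of the list was -0.81, against 0.02 over all genes tested. The size of the difference varied among the Dex libraries, with a median difference from the Mock mean of -1.48 in Dex replicate 1, -0.91 in replicate 3 and -0.27 in replicate 2. Summed levels of the list were 1466, 3280 and 2160 CPM in Dex replicates 1, 2 and 3, against 3583 to 3837 CPM in Mock. *WRKY49* went the other way in values, with 38.3, 4.16 and 24.7 CPM in Dex, against 3.87, 3.63 and 3.25 CPM in Mock (adjusted p = 0.0673 by edgeR). Without Dex replicate 2, 33 of the 38 members passed as lower and 1 as higher, against 13% and 12.3% of all genes. The list leans on names from the study's own tables of changed genes, made from these libraries. It is therefore not independent evidence of a direction, which holds for every list here. Of the 20353 genes tested, 3202 had a listed counterpart, and they held 31 of the 56 genes that rose and 20 of the 32 that fell. The shares of calls over all genes are thus too low a background for lists of genes with a counterpart, this one included.

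Other genes that fell lay outside that list. *GRP9* (CARHR103190), for a glycine-rich protein, had 13.7, 17.36 and 13.3 CPM in Dex, against 46.3, 49.6 and 44.4 CPM in Mock (log2 fold change -1.66 ± 0.12, adjusted p = 0.0172 by edgeR). Dex and Mock libraries were far apart, with little spread within either group. *NAC3* (CARHR090550), annotated as NAC domain protein 55, which in *A. thaliana* responds to jasmonate and abscisic acid, had 1.89, 2.87 and 2.44 CPM in Dex, against 9.40, 7.26 and 8.03 CPM in Mock. *EXO70H8* (CARHR121760), an exocyst subunit gene, had 0.698, 1.18 and 0.815 CPM in Dex, against 3.43, 3.201 and 3.2 CPM in Mock. The groups were well apart in both, at log2 fold changes of -1.78 and -1.87. *AT5G51680*, for a hydroxyproline-rich glycoprotein, fell by 2.06 on the log2 scale. *MAPKKK16*, a kinase gene, fell by 1.44, and *DML3*, a DNA glycosylase gene that removes methylated cytosine, fell by 1.13. Smaller falls were those of *AT1G76550*, a subunit of the pyrophosphate-dependent phosphofructokinase (-0.94), of *CYTC-2*, cytochrome c (-0.79), and of the WD40 gene *AT4G01860* (-0.78). All of these but *GRP9* had adjusted p-values between 0.0443 and 0.0465 by edgeR. Of genes without a listed counterpart, CARHR174320 had 0.299, 0.449 and 0.383 CPM in Dex, against 3.43, 3.42 and 3.67 CPM in Mock (log2 fold change -3.202). CARHR263220, also without one, fell by 1.89.

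Cell wall genes were mostly higher in Dex in values. *XTH9* (CARHR251660), a xyloglucan endotransglucosylase that remodels walls of growing cells, had 90.9, 83.5 and 84.7 CPM in Dex, against 47.5, 47.4 and 49.7 CPM in Mock (log2 fold change 0.84 ± 0.08, adjusted p = 0.0344 by edgeR). *XTH9* was the 1 of 17 tested cell wall genes that rose, against 0.275% of all genes, and none fell. All Dex libraries were above all Mock libraries in 13 of the 17 (20.8% over all genes) and below them in 2 (20.7%). The median of the list was 1.13. *XTR8*, a relative of *XTH9*, had 94.8, 40.6 and 75.0 CPM in Dex, against 20.2, 23.9 and 20.6 CPM in Mock, and did not pass (adjusted p = 0.0517 by edgeR). *XTH29*, of the same family and nearer to passing (adjusted p = 0.0506 by edgeR), lay the other way, with all Dex libraries below all Mock libraries and a log2 fold change of -1.44. Without Dex replicate 2, 14 of the 17 passed as higher and 1 as lower, against 12.3% and 13% of all genes.

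Single members rose in 3 further lists, where 0.275% of all genes rose. *TT6* (CARHR160820), the flavanone 3-hydroxylase of flavonoid synthesis, had 43.6, 39.2 and 40.6 CPM in Dex, against 24.8, 22.2 and 25.3 CPM in Mock, and was the 1 of 18 flavonoid genes that rose. *DFR*, a later step toward anthocyanins, had 10.7, 4.66 and 8.38 CPM in Dex, against 2.35, 2.13 and 2.05 CPM in Mock (adjusted p = 0.0517 by edgeR). In the flavonoid list 10 members had all Dex libraries above Mock (20.8% over all genes), and the median was 1.02. *LOX2* (CARHR291400), the plastid lipoxygenase that starts jasmonate synthesis, had 174, 184 and 181 CPM in Dex, against 110.0, 89.3 and 99.1 CPM in Mock. It was the 1 of 13 jasmonate genes that rose, while *TAT3*, a jasmonate-responsive aminotransferase, had 3.09, 8.09 and 5.27 CPM in Dex, against 27.2, 12.2 and 18.1 CPM in Mock (adjusted p = 0.0570 by edgeR). The jasmonate list leaned neither way, at a median of 0.12. *CLC-B* (CARHR148370), of the chloride channel family, was the 1 of 21 nutrient genes that rose (list median 0.31). It had 72.1, 56.1 and 71.1 CPM in Dex, against 33.5, 32.9 and 29.8 CPM in Mock.

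The other named genes that rose were of mixed function. *UGT72E1* (CARHR160250), which glucosylates phenylpropanoid aldehydes, had 10.1, 5.84 and 7.33 CPM in Dex, against 1.52, 1.81 and 1.99 CPM in Mock. This was a 4.38-fold rise, the largest among the named genes that passed. *AT1G09310* (CARHR009290), of unknown function, had 160.1, 164.6 and 140.6 CPM in Dex, against 73.8, 78.0 and 76.5 CPM in Mock, at a log2 fold change of 1.03 ± 0.09. Neither gene had a Dex library near the Mock range. *AT2G21200*, of the SAUR class of auxin-responsive genes, rose by 1.03 on the log2 scale, *ALMT12*, an anion channel of guard cells, by 0.89, and *PDLP3*, a plasmodesmata protein gene, by 0.75. *AT3G56290* and *AT2G22795*, both uncharacterised, rose by 1.37 and 0.90. CARHR089880 and CARHR231050, for which no counterpart was listed, rose by 0.62 and 0.68.

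Several lists held no gene that passed and yet differed from the bulk of genes in their medians. In the DNA replication and cell cycle list, 0 of 26 members passed (0.432% over all genes), all Dex libraries lay above Mock in 16 (20.8% over all genes), and the median log2 fold change was 1.05. *MCM2*, a subunit of the replicative helicase, had 30.7, 11.4 and 26.3 CPM in Dex, against 7.69, 10.6 and 9.39 CPM in Mock (adjusted p = 0.0672 by edgeR). Its level in Dex replicate 2 was close to Mock, and the median of the list was 0.24 in that library, against 1.5 in replicate 1 and 1.1 in replicate 3. *PCNA1*, the sliding clamp, had the opposite sign, with 11.3, 20.2 and 15.1 CPM in Dex, against 30.7, 26.7 and 26.1 CPM in Mock, while *PCNA2* had 45.4, 27.4 and 36.9 CPM in Dex, against 20.3, 22.4 and 21.8 CPM in Mock. The pair is nearly identical in sequence in *A. thaliana*, and how reads shared by such copies were counted is not known here. Without Dex replicate 2, 25 of the 26 members passed as higher, against 12.3% of all genes, and *PCNA1* as lower.

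Photosynthesis genes, a mark of mature leaf tissue, had summed levels of 3076, 2801 and 2865 CPM in Dex, against 2191, 2225 and 2106 CPM in Mock. The groups did not overlap, although 0 of the 14 members passed (0.432% over all genes). In 13 members all Dex libraries lay above Mock (20.8% over all genes), and in *HEMA1* all lay below (log2 fold change -0.71). The largest part of each sum was *PSBO1*, with 1671, 1833 and 1641 CPM in Dex, against 1345, 1433 and 1315 CPM in Mock (adjusted p = 0.102 by edgeR). *PSAD-2* (CARHR002480), a subunit of photosystem I, was the nearest to passing (log2 fold change 0.77 ± 0.13, adjusted p = 0.0517 by edgeR). Glucosinolate genes had 0 of 17 members that passed, 11 with all Dex libraries above Mock (20.8% over all genes) and a median of 0.83, with *CYP83A1* at 0.84 (adjusted p = 0.0510 by edgeR) and *BCAT4* at 1.17 (adjusted p = 0.0531 by edgeR), both of methionine-derived glucosinolate synthesis. Whether a different share of mature tissue or of dividing cells in the pools had a part in these values was not tested.

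Heat shock and hypoxia genes, taken as marks of handling and stress, stood lower in Dex in values. The jasmonate list, taken as another such mark, leaned neither way (median 0.12). Of 26 heat shock genes 0 passed (0.432% over all genes), 17 had all Dex libraries below Mock (20.7% over all genes), and the median was -0.91. *HSP70-4* (CARHR087080), a cytosolic chaperone, had 140.8, 209.5 and 159.5 CPM in Dex, against 420.8, 314.0 and 350.1 CPM in Mock (adjusted p = 0.0517 by edgeR). Of 8 hypoxia genes 0 passed, 7 had all Dex libraries below Mock, against the same shares of all genes, and the median was -0.97. *SUS1*, a sucrose synthase induced by low oxygen in *A. thaliana*, had 37.0, 129.5 and 71.2 CPM in Dex, against 261.5, 238.2 and 241.4 CPM in Mock (adjusted p = 0.0631 by edgeR). *HSP70-4* and *SUS1* were lower in every Dex library than in any Mock library. *PDC1*, the pyruvate decarboxylase of fermentation, had 63.9, 377 and 175 CPM in Dex, against 644, 554 and 598 CPM in Mock. Summed hypoxia levels were 237, 940 and 492 CPM in Dex replicates 1, 2 and 3, against 1296 to 1439 CPM in Mock, and summed heat shock levels were 561, 1096 and 753 CPM, against 1464 to 1756 CPM in Mock. The order of the Dex libraries in these sums was that of their distance from Mock over all genes. The part of submergence and handling in the other differences was not tested. Markers of other tissue were scarce, as only 2 of 14 root hair genes and 3 of 9 seed genes with a counterpart had enough reads to be tested, and none of them passed. The seed genes split the Dex libraries, with median differences from the Mock mean of 2.32, -1.7 and 1.78 in replicates 1, 2 and 3. *PAP85*, a cupin gene, had 4.44, 0.056 and 3.02 CPM in Dex, against 0.29, 1.01 and 0.63 CPM in Mock. *ABI5* went the other way, with 3.04, 7.70 and 4.98 CPM in Dex, against 15.7, 13.1 and 15.5 CPM in Mock. Without Dex replicate 2, 2 seed genes passed as higher and 1 as lower, against 12.3% and 13% of all genes.

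The apex list and the hormone lists other than jasmonate held no gene that passed either, where 0.432% of all genes did. Of 12 boundary and meristem genes 0 passed, 5 had all Dex libraries above Mock (20.8% over all genes) and the median was 0.41, with *CYP78A5* (log2 fold change 0.86) and *NGA1* (0.82) nearest to passing. Of 16 auxin transport genes 0 passed, and the median was -0.19. All Dex libraries lay below Mock in 8 of them (20.7% over all genes) and above Mock in 4 (20.8%). *PIN6* (CARHR070590), a PIN of the endoplasmic reticulum, had 3.89, 8.43 and 6.04 CPM in Dex, against 15.6, 12.0 and 14.01 CPM in Mock (adjusted p = 0.0570 by edgeR), lower in each Dex library. The auxin synthesis and conjugation list (median -0.38), auxin response (-0.06), cytokinin (0.65), gibberellin (0.90), abscisic acid and cold (-0.28) and clock and sugar (-0.61) were the other lists of this kind, also with 0 members that passed. In these 6 lists the smallest adjusted p was 0.0517 by edgeR, for *GA2OX7*, a gibberellin 2-oxidase, at a log2 fold change of 1.82. All Dex libraries lay below Mock in 5 of 10 auxin synthesis and conjugation genes and above in 1. For clock and sugar these counts were 7 and 2 of 9, for gibberellin 3 and 4 of 8 and for cytokinin 2 and 2 of 14. They were 3 and 3 of 10 for abscisic acid and cold and 3 and 0 of 8 for auxin response, against the same shares of all genes. In 3 lists the median of Dex replicate 2 had the opposite sign to replicates 1 and 3. In replicates 1, 2 and 3 it was 0.99, -0.09 and 0.68 for cytokinin and 1.41, -0.15 and 0.95 for gibberellin. For abscisic acid and cold it was -0.38, 0.05 and -0.13.

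The members of these lists nearest to passing differed in how evenly the Dex libraries held their difference. *GH3.2*, an auxin-conjugating enzyme gene, had 5.23, 14.1 and 8.62 CPM in Dex, against 28.4, 28.9 and 28.9 CPM in Mock (adjusted p = 0.0531 by edgeR), and *GA2OX2* had 7.73, 13.6 and 9.25 CPM in Dex, against 24.3, 16.7 and 21.1 CPM in Mock (adjusted p = 0.0582 by edgeR). *ARR9*, a type-A response regulator of cytokinin signalling, had 20.9, 10.7 and 19.9 CPM in Dex, against 6.66, 9.34 and 10.3 CPM in Mock (adjusted p = 0.0742 by edgeR). In *ARR9* the value of Dex replicate 2 was next to the highest Mock value. *BMY1*, a beta-amylase gene, had 19.7, 5.06 and 14.2 CPM in Dex, against 3.28, 2.61 and 2.62 CPM in Mock, and *ERD10*, a dehydrin gene, had 948.6, 696.9 and 810.4 CPM in Dex, against 478.7, 556.4 and 493.6 CPM in Mock. *RVE1*, a clock-related MYB factor gene, was more even, with 4.34, 5.06 and 4.93 CPM in Dex, against 7.79, 6.78 and 7.24 CPM in Mock. *BMY1*, *ERD10* and *RVE1* had adjusted p-values of 0.0555, 0.0548 and 0.0545 by edgeR.

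**Figure D4:**
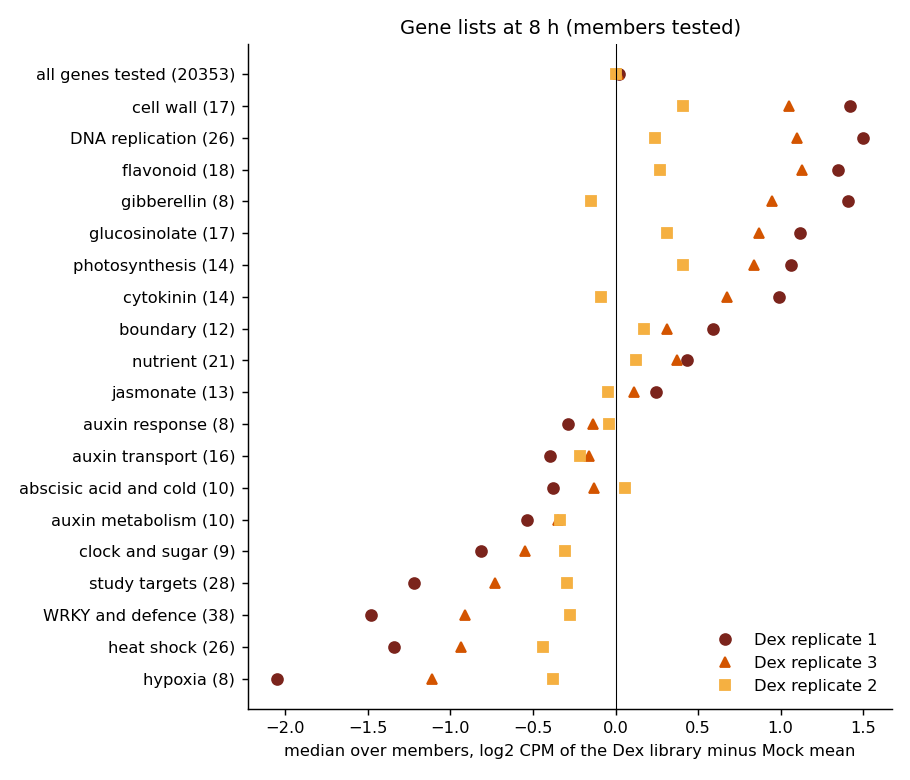
Median over the tested members of each list (number in brackets) of the log2 CPM difference between a Dex library and the Mock mean, lists with at least 8 members and all genes tested. Replicate 1 (circles) lies farthest from 0 and replicate 2 (squares) nearest in most lists, as in DNA replication with 1.5, 1.1 and 0.24 in replicates 1, 3 and 2.

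The study's own list of 28 targets, which it chose partly by their response in this series, had 0 members that passed at 8 h. All Dex libraries lay above Mock in 5 of them (20.8% over all genes) and below Mock in 17 (20.7%). Without Dex replicate 2, 6 passed as higher and 21 as lower, against 12.3% and 13% of all genes. A second list, of genes recorded as bound by ChCUC1 in chromatin and in purified DNA, had 205 members tested and 0 that passed, against 0.432% of all genes tested. Their median log2 fold change was -0.02, with 42 above and 51 below Mock in all libraries, which are shares of 20.5% and 24.9%, against 20.8% and 20.7% of all genes. The study describes its 28 targets as the overlap of responsive genes with both sets of bound genes. The second list therefore holds the targets and is not separate from them. Its share below Mock includes the 17 targets that lay below, which were chosen partly by their response in this series.

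Set beside the other times, the genes called at 8 h mostly had the same sign. Each time has its own Mock libraries, so the values below do not share controls. Of the 56 genes that rose, 51 had a positive log2 fold change at 2 h, 50 at 4 h and 56 at 6 h, with medians of 0.34, 0.48 and 0.53. Of the 32 that fell, 26, 31 and 28 had a negative one at 2, 4 and 6 h, with medians of -0.74, -1.28 and -1.01. Over all 20353 genes, 51.3%, 52.5% and 52.1% of values were positive at 2, 4 and 6 h, and log2 fold changes correlated with those at 8 h at r = 0.603, 0.703 and 0.782, as a description across genes. *ChCUC1* had log2 fold changes of 1.12 ± 0.38 at 2 h, 1.89 ± 0.39 at 4 h, 1.85 ± 0.39 at 6 h and 1.95 ± 0.39 at 8 h in the fit of all 24 libraries. *NAC3*, *EXO70H8*, *AT5G51680*, *MAPKKK16* and *DML3* had negative values at all 4 times. *ALD1* and *FMO1* did not, with *ALD1* at -0.34, -2.79, 1.11 and -5.53 and *FMO1* at 0.65, -3.48, 1.19 and -6.19 at 2, 4, 6 and 8 h. *XTH9* had 0.00, 0.13, 0.26 and 0.85 in the same order.

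**Figure D5:**
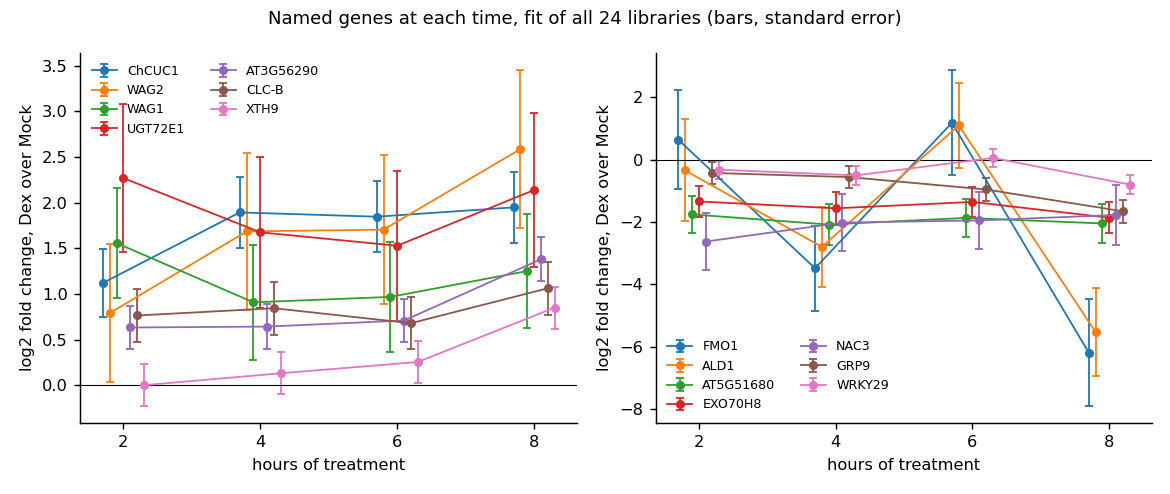
Log2 fold change of Dex over Mock at 2, 4, 6 and 8 h for 7 genes on each side, from the fit of all 24 libraries, with standard errors as bars and small sideways shifts between genes. ChCUC1 stays between 1.12 and 1.95, while FMO1 and ALD1 change sign between times and have wide errors.

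Whether the Dex effect at 8 h differed from its mean at 2, 4 and 6 h was tested in the same fit. No gene of 21689 was called (0%) by edgeR, 517 had an unadjusted p under 0.05, and no other tool was run for this difference. The smallest p belonged to CARHR103380, with a difference of 0.71 ± 0.17 on the log2 scale, and the next to *AT5G28610* (CARHR185170), an uncharacterised gene, with 1.40 ± 0.34 (adjusted p = 0.9999 by edgeR for both). CARHR202540 (-1.99) and CARHR127380 (0.72) followed. *AT5G28610* was among the genes that rose at 8 h, where it had 13.1, 16.2 and 12.1 CPM in Dex, against 5.43, 6.67 and 6.19 CPM in Mock. The differences of *ALD1* (-4.85 ± 1.67) and *FMO1* (-5.64 ± 2.01) were large but had wide errors and did not pass.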

How the data were processed

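Poly(A) RNA libraries of the 6 pools at 8 h were analysed, with the other 18 of the 24 used for comparison between times. The deposited files hold raw read counts per gene, 1 file per library, which the authors made with STAR 2.4.2a and HTSeq 0.5.4p1 according to the submitters' processing notes, which also name DESeq. Neither the genome build nor HTSeq's strand option is stated in what was used here. Reads of antisense partners may therefore be mixed. The summary lines without a gene, of which reads outside genes made up 10.94% to 12.08% of the reads listed at 8 h, entered neither library sizes nor tests.

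The 29458 gene rows of the 6 libraries were filtered with filterByExpr (minimum count 10), scaled by TMM and fitted with edgeR 4.0.16 in R 4.3.3 (glmQLFit, robust, and glmQLFTest, two-sided, treatment as the only term). The difference between times was a contrast in a fit of all 24 libraries. log2 CPM used a prior count of 2. DESeq2 1.42.0 and the other alternatives are described in the closing section. P-values measure the spread between 3 pools a group, and intervals cover counting error only.

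Gene names came from 4021 pairs of identifiers in the study's supplementary tables, 1846 of them given only in its tables of changed genes. Of 503 list members 333 had a pair. The members, the 20 lists and the tests were chosen with earlier results of these data known. Named genes were *ChCUC1*, *WAG1* and *WAG2*, and the 12 genes that rose and the 12 that fell with the smallest p. Those 12 in each direction had a listed counterpart, a mean of at least 1 CPM and no overlap of libraries. Also named were the called members of each list, or else the 2 with the smallest p. The rule added 2 genes without a listed counterpart in each direction, and 4 genes for the difference between times. *WRKY49*, *XTR8*, *XTH29*, *DFR*, *TAT3*, *MCM2*, *PCNA1*, *PSBO1*, *HEMA1* and *PDC1* fall outside that rule and were chosen after their values were seen.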

Additional observations from a re-analysis of the deposited data

Results flagged for a closer look

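For 3 of the named genes every Dex library lay on one side of every Mock library at 8 h and on the opposite side at 2 h. CARHR174320 had a log2 fold change of 1.88 at 2 h and -3.19 at 8 h, *AT5G28610* had -0.79 at 2 h and 1.19 at 8 h, and CARHR127380 had -0.49 at 2 h and 0.66 at 8 h, all in the fit of 24 libraries. *AT5G28610* and CARHR127380 were named for their difference between times, so their opposite signs follow in part from that choice. In the test of 8 h minus 2 h, the adjusted p was 0.722 for *AT5G28610* and for CARHR127380 and 1.00 for CARHR174320 by edgeR, so none passed. Groups of 3 libraries are too small for a test of single outlying libraries.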

How the results depend on the processing

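The number of genes called at 8 h depended on the libraries, the tool and the limits used. The 88 calls became 0 with 1 spread from all 24 libraries, 2135 with DESeq2, 42 with library totals without TMM, 203 with no filter on low counts and 2303 at an adjusted p under 0.1, a limit chosen after seeing the data. DESeq2 size factors, a minimum count of 50, a fit without the robust estimate and no fold limit gave 76, 86, 121 and 95. Leaving out 1 library, or the libraries of 1 number in both groups, gave 0 to 5139 calls. With a replicate block, 0 genes were called and 6012 had an unadjusted p under 0.05. Same-numbered libraries did not deviate together (r = -0.121, -0.106 and -0.034 for replicates 1, 2 and 3), so the numbers were not taken as pairs. The cause of the differences between fits was not tested.

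Of the named genes, *RHS16* alone changed sign, with a log2 fold change of 0.04 that lay between -0.0914 and 0.315 on leaving out libraries. *ChCUC1* stayed between 1.76 and 2.17 over 17 alternatives, with an adjusted p by edgeR or DESeq2 from 6.83e-12 to 0.541. The difference between 8 h and the other times called 0 genes under every alternative run, that is with a replicate block (516 at an unadjusted p under 0.05), DESeq2 size factors, 8 h minus 2 h, or without any one 8 h library. With 3 libraries a group, the calls at 8 h stand only beside these counts.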
